A study of Homo sapiens with 15 samples.

Results

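The endoplasmic reticulum (ER) stress chaperones described here were 10 genes of protein folding and quality control in the ER, chosen by symbol: XBP1, HSPA5, HSP90B1, DNAJB9, DNAJC3, CALR, PDIA4, SDF2L1, HERPUD1 and EDEM1. All 10 were found among the 37787 genes of the deposited count table, and all 10 passed the filter on low counts that left 13868 genes for testing. RNA-seq had been carried out on HGrC1, an immortalized human granulosa cell line that is not luteinized, in 15 libraries from 5 transfections with 3 replicates (A, B and C) each. Vectors received empty plasmids, FOXL2WT received SMAD3 with wild-type FOXL2, and FOXL2C134W received SMAD3 with the FOXL2 mutant of adult granulosa cell tumors. FOXL2WT+FOXO1 and FOXL2C134W+FOXO1 received the same pairs together with FOXO1-3A, a constitutively active form of FOXO1. Every condition shared lipofection for 4 h and a further 24 h in medium without serum, and all cells came from 1 line with transient expression from plasmids. No source says that the replicates were separate experiments, so p-values measure only the spread between these wells, which may be technical.

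When unfolded proteins accumulate in the ER, membrane sensors start the unfolded protein response. IRE1 splices the messenger RNA of the transcription factor XBP1, ATF6 is cut to release another transcription factor, and PERK slows translation and raises ATF4. Together they increase the production of chaperones, disulfide isomerases and the machinery of ER-associated degradation, and secretory cells, among them the hormone- and matrix-producing granulosa cells, depend on this system. The sites through which ATF6 and XBP1 act are the ER stress response element (ERSE), CCAAT and CCACG separated by 9 bases, and ERSE-II, ATTGG and CCACG separated by 1 base.

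The promoters of the 10 genes were searched for these elements on both strands in RefSeq windows of 300 bases on GRCh38.p14. The windows run from 250 bases before to 50 bases after a gene's start. The 10 genes had 12 windows, with 2 each for XBP1 and PDIA4. An ERSE lay in 4 of the 12 windows, those of HSPA5, HSP90B1 (which held a pair), CALR and XBP1, and an ERSE-II in 2, those of HERPUD1 and SDF2L1. Among all 35116 windows the ERSE was present in 0.0769% and ERSE-II in 0.0541%. The 10 genes were chosen as ER stress genes, and the elements are known sites of that response. Their higher share in these genes is therefore no independent result. The shorter CCACG, which is contained in both elements, was present in all 12 windows and in 38.1% of all windows. The upstream 250 bases follow for HSPA5, HSP90B1 and CALR, which fell against Vectors, and for XBP1 and HERPUD1, which fell from FOXL2WT to FOXL2C134W; capitals mark the 5-base boxes of each element, read as CGTGG and ATTGG where it lies on the opposite strand.
HSPA5 (chr9:125241344-125241593, minus strand): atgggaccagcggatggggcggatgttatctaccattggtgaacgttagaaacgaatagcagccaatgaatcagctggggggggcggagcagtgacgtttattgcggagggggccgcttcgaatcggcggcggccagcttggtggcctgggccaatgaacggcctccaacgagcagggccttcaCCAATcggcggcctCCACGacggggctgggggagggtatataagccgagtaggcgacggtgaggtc
HSP90B1 (chr12:103930160-103930409, plus strand): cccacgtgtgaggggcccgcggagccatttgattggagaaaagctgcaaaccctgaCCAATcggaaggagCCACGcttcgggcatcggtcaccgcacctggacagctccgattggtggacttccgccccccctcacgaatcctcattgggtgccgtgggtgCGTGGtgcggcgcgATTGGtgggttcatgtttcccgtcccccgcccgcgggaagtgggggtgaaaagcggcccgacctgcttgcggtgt
CALR (chr19:12938359-12938608, plus strand): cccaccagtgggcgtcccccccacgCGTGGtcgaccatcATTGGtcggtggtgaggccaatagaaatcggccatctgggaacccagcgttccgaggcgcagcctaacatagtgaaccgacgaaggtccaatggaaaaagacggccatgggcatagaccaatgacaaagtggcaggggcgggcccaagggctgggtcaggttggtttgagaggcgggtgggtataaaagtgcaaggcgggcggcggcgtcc
XBP1 (chr22:28800570-28800819, minus strand): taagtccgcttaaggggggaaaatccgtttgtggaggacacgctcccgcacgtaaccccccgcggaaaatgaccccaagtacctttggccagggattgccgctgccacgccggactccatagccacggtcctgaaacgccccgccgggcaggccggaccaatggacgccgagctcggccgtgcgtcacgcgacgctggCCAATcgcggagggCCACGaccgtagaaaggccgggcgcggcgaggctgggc
HERPUD1 (chr16:56931892-56932141, plus strand): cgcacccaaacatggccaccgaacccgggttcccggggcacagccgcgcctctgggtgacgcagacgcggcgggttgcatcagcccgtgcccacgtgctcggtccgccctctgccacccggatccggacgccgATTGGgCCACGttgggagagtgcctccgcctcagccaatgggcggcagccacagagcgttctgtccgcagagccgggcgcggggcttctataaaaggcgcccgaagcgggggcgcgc

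The element of HSPA5, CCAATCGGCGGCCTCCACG, began 66 bases before the start, and that of XBP1, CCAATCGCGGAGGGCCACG, began 52 bases before it. The ERSE-II of HERPUD1, ATTGGGCCACG, began 117 bases upstream, and that of SDF2L1, ATTGGTCCACG, lay on the opposite strand at 188 bases upstream. A match is a description of these letters and not evidence of a bound site. The window holding the ERSE was 1 of the 2 for XBP1. DNAJB9, DNAJC3, PDIA4 and EDEM1 held neither element within these windows.

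Levels between genes were compared as TPM, transcripts per 1000000 transcripts, which correct for transcript length. CALR, the calcium-binding lectin chaperone calreticulin, was the highest with a mean of 986 TPM over the 15 libraries, followed by HSP90B1, the HSP90 of the ER, at 691 TPM and HSPA5, the ER HSP70 known as BiP, at 394 TPM. XBP1 had 185 TPM. HERPUD1, a stress-induced membrane protein of the degradation machinery, had 132 TPM, and PDIA4, a protein disulfide isomerase, 129 TPM. The other 4 genes were much lower, with 30.0 TPM for SDF2L1, a component of an HSPA5 cochaperone complex, 18.6 TPM for EDEM1, which directs misfolded glycoproteins to degradation, 18.0 TPM for DNAJC3 and 15.1 TPM for DNAJB9, both J-domain cochaperones of HSPA5. CALR and HSP90B1 kept their order in 15 of 15 libraries although their ranges overlapped, whereas HERPUD1 exceeded PDIA4 in only 9 of 15 and EDEM1 exceeded DNAJC3 in 8 of 15, so that those neighbours could not be ranked. The summed level of the 10 genes was 3098, 2940.4 and 2863 TPM in Vectors A, B and C. It was 2411, 2403 and 2477 TPM in FOXL2WT, and 2394, 2643 and 2636 TPM in FOXL2C134W. With FOXO1 it was 2196, 2541 and 2459 TPM in FOXL2WT+FOXO1 and 2641, 2491 and 2788 TPM in FOXL2C134W+FOXO1. All 12 transfected libraries lay below the 3 of Vectors, and CALR, HSP90B1 and HSPA5 made up 37.9%, 26.6% and 15.2% of the sum.

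The transfected genes were checked as CPM, counts per 1000000 counts of a library after scaling with TMM factors. FOXL2 averaged 8.73 CPM in Vectors, 561 in FOXL2WT, 147 in FOXL2C134W, 384 in FOXL2WT+FOXO1 and 152 in FOXL2C134W+FOXO1. SMAD3 averaged 249, 2768, 843, 969 and 392 CPM in the same order, and FOXO1 13.2, 12.2, 12.0, 117 and 43.2 CPM. The conditions therefore differed in the amount of each transfected RNA as well as in the form of FOXL2, and in the comparisons of FOXL2C134W with FOXL2WT the form and the amount of RNA cannot be told apart. The addition of FOXO1 likewise came with other amounts of SMAD3 RNA. The study examined FOXL2WT, FOXL2C134W and FOXO1 protein by immunoblot and describes their levels as balanced. Its text describes no immunoblot of SMAD3. The immunoblot is not analysed here. Libraries held 14962245 to 25339094 estimated counts. Of 10 granulosa markers without FOXL2, 6 passed the filter. FSHR had 0 counts in all 15 libraries, which allows at most 3 counts per library, and CYP19A1 had 0 to 4 counts, so that the gonadotropin receptor and aromatase were at or near the floor, while the follistatin gene FST ranged from 25 to 33.7 TPM. The 10 granulosa markers summed to 36.9 to 40.4 TPM in Vectors, 42.1 to 44.6 in FOXL2WT and 38.3 to 44.7 in the other 3 conditions, and HSD17B1 was higher in FOXL2WT than in Vectors (log2 fold change 0.63, edgeR adjusted p = 0.026). HSD17B1 was not called there with transcript length offsets in DESeq2 (adjusted p = 0.068). In bulk RNA, fewer cells of a type and less RNA per cell cannot be told apart. The endothelial marker TEK and the leukocyte-list gene CD68 were also lower than in Vectors in all 4 transfected conditions, as was the epithelial marker CLDN4. With transcript length offsets in DESeq2, TEK was called only in FOXL2C134W (adjusted p = 0.0037) and CD68 only in FOXL2WT+FOXO1 (adjusted p = 0.039). CLDN4 was not called in FOXL2WT+FOXO1 in that setting (adjusted p = 0.078). The summed level of 4 leukocyte genes was 107 to 133 TPM in Vectors and 93.3 to 117 TPM elsewhere, nearly all of it CD68, with PTPRC at 0 to 5 counts. The 4 endothelial genes summed to 6.67 to 7.32 TPM in Vectors and 4.70 to 7.19 TPM elsewhere, and the 4 epithelial genes, mostly KRT19, to 432 to 489 and 353 to 429 TPM. Their part in the results was not tested.

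**Figure D1:**
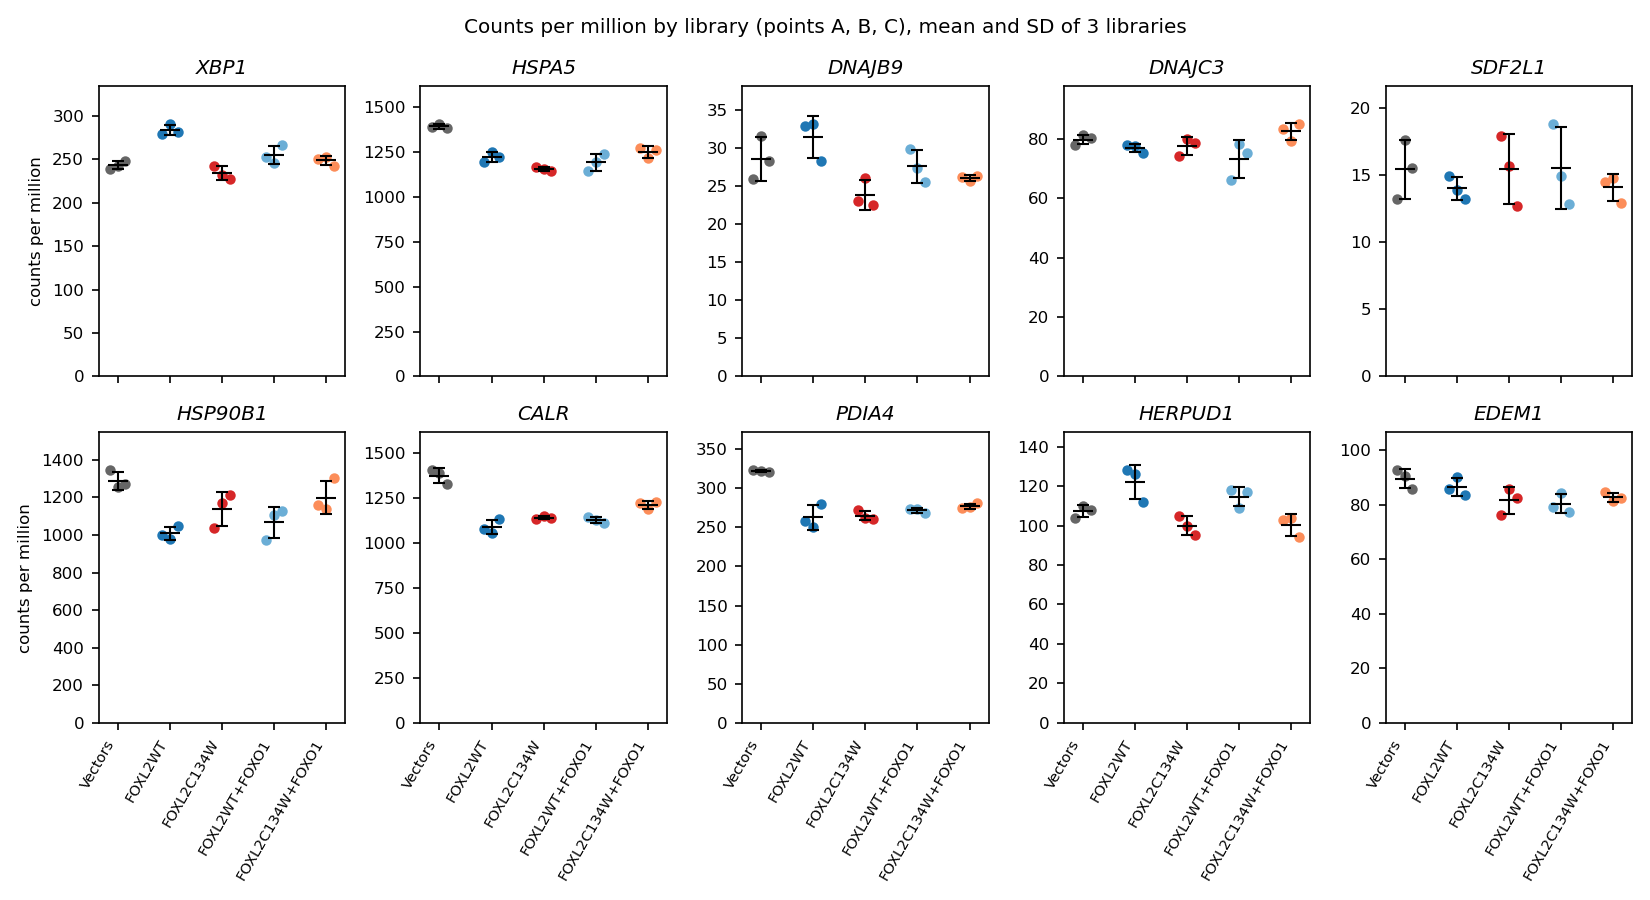
CPM (linear vertical axis from 0) of the 10 ER genes in each of the 15 libraries; points are libraries A, B and C, bars the mean and SD of 3. HSPA5, CALR and PDIA4 lay below Vectors in every transfected library, whereas XBP1 was highest in FOXL2WT at 279 to 291 CPM.

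FOXL2WT was first compared with Vectors, the comparison of wild-type FOXL2 and SMAD3 with empty plasmids. The abundant folding genes were lower: CALR, HSP90B1, PDIA4 and HSPA5 fell by 20.7%, 21.7%, 18.4% and 12.3%. In contrast XBP1, the transcription factor, rose by 16.5%. Thus 5 of the 10 genes passed an adjusted p of 0.05 in edgeR, against 6.07% of all genes tested. Of these, 4 were lower, against 3.61% of all genes, and 1 was higher, against 2.46%. The median log2 fold change of the 10 genes was -0.10, beside 0.003 over all genes.

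CALR was measured at 1402, 1388 and 1327 CPM in Vectors A, B and C and at 1076, 1056 and 1131 CPM in FOXL2WT. The groups did not overlap, and the log2 fold change was -0.34 ± 0.034 (SE, n = 3 against 3, edgeR adjusted p = 1.3e-05). HSP90B1 went from 1344, 1253 and 1271 CPM to 999, 980.4 and 1048 CPM, again without overlap (log2 fold change -0.35 ± 0.063, edgeR adjusted p = 0.0023). The libraries of Vectors for PDIA4 were almost equal at 323, 322 and 321 CPM, and those of FOXL2WT were 258, 250.1 and 279.9 CPM. Every FOXL2WT library was lower (log2 fold change -0.29 ± 0.039, edgeR adjusted p = 0.00015). HSPA5 was at 1389, 1407 and 1382 CPM in Vectors and at 1193, 1251 and 1221 CPM in FOXL2WT. Its change was smaller than that of CALR but the groups were equally separate (log2 fold change -0.19 ± 0.035, edgeR adjusted p = 0.0029).

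XBP1 moved the other way. It was at 239, 243 and 248 CPM in Vectors and at 279, 291 and 282 CPM in FOXL2WT, with all 3 FOXL2WT libraries above all others of the series (log2 fold change 0.22 ± 0.039, edgeR adjusted p = 0.0023). HERPUD1 had the same sign without passing the threshold, with 104, 110.0 and 108 CPM in Vectors and 128, 126 and 112 CPM in FOXL2WT (log2 fold change 0.18 ± 0.056, edgeR adjusted p = 0.063). The 3 libraries of each group were separate but the margin between Vectors B and FOXL2WT C was narrow. HERPUD1 passed in 3 of 10 alternatives, which were DESeq2 (adjusted p = 0.043), the filter of 1 count (edgeR adjusted p = 0.014) and the fit of only the conditions compared (edgeR adjusted p = 0.019), and also without FOXL2WT C (edgeR adjusted p = 0.021). The other 4 genes did not pass the threshold: DNAJB9 had a log2 fold change of 0.13, DNAJC3 of -0.052, EDEM1 of -0.053 and SDF2L1 of -0.14. The 95% intervals of DNAJC3 and EDEM1, from -0.17 to 0.061 and from -0.16 to 0.054, were narrow, whereas that of SDF2L1, the gene with the fewest counts, ran from -0.43 to 0.15.

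**Figure D2:**
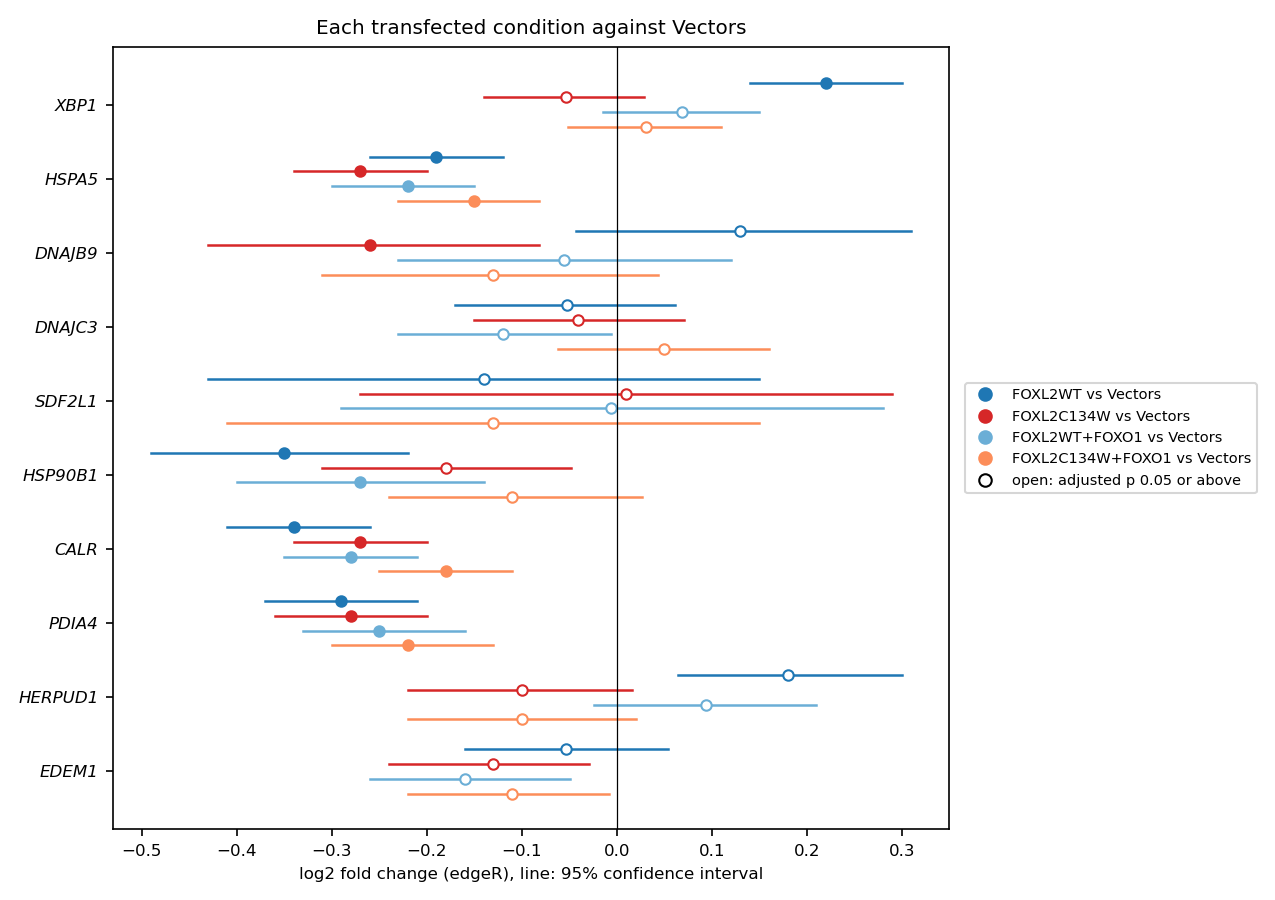
Log2 fold change from edgeR (horizontal axis; lines are 95% confidence intervals) of the 10 ER genes in each transfected condition against the same 3 Vectors libraries; filled points have an adjusted p under 0.05. HSPA5, CALR and PDIA4 are filled and below 0 in all 4 comparisons, and XBP1 is filled in FOXL2WT alone at 0.22.

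FOXL2C134W was also compared with Vectors, for the mutant. HSPA5, CALR and PDIA4 fell again, by 16.9%, 17% and 17.8%, and DNAJB9 fell by 16.4%. These 4 of 10 genes, all lower, stand beside 14.7% of all genes called in either direction and 7.24% called lower. The median log2 fold change of the 10 genes was -0.16, beside 0.004 over all genes. HSPA5 was at 1166, 1158 and 1146 CPM in FOXL2C134W, CALR at 1131, 1146 and 1138 CPM, and PDIA4 at 272, 262 and 261 CPM. In each case the mutant libraries lay close together and all below Vectors. The log2 fold changes were -0.27 ± 0.035 for HSPA5, -0.27 ± 0.034 for CALR and -0.28 ± 0.039 for PDIA4 (edgeR adjusted p = 4.5e-05, 3.5e-05 and 8.7e-05).

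DNAJB9 was a less firm call. It was at 25.9, 31.6 and 28.3 CPM in Vectors and at 23.0, 26.1 and 22.5 CPM in FOXL2C134W, so that FOXL2C134W B overlapped with Vectors A (log2 fold change -0.26 ± 0.084, edgeR adjusted p = 0.045). The call was lost without Vectors B (log2 fold change -0.18, edgeR adjusted p = 0.22), without Vectors C (0.1), without FOXL2C134W A (0.12) or without FOXL2C134W C (0.15), and it was made in 7 of 10 alternatives. It was not made with transcript length offsets in DESeq2 (log2 fold change -0.13, adjusted p = 0.57), with only the conditions compared (edgeR adjusted p = 0.063) or with the GC content offset (edgeR adjusted p = 0.089). HSP90B1 was at 1035, 1171 and 1211 CPM in the mutant, all below Vectors but more spread, and missed the threshold (log2 fold change -0.18 ± 0.063, edgeR adjusted p = 0.063), as did EDEM1 (-0.13 ± 0.050, edgeR adjusted p = 0.082). In 6 of 10 alternatives HSP90B1 passed, and without FOXL2C134W C its log2 fold change was -0.23 (edgeR adjusted p = 0.04). XBP1, at 243, 232 and 228 CPM, did not pass (log2 fold change -0.053, 95% interval -0.14 to 0.029).

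The conditions with FOXO1 were compared with the same Vectors libraries. In FOXL2WT+FOXO1, HSPA5, HSP90B1, CALR and PDIA4 fell by 14.3%, 17.2%, 17.8% and 15.6%, which are 4 of 10 genes beside 3.78% of all genes in either direction and 2.37% lower. In FOXL2C134W+FOXO1, HSPA5, CALR and PDIA4 fell by 10.2%, 11.8% and 13.9%, which are 3 of 10 beside 9.33% in either direction and 5.16% lower. CALR was at 1144, 1128 and 1111 CPM in FOXL2WT+FOXO1 and at 1220.0, 1187 and 1226 CPM in FOXL2C134W+FOXO1. All 6 libraries were below the 3 of Vectors (log2 fold changes -0.28 ± 0.034 and -0.18 ± 0.034, edgeR adjusted p = 9.6e-05 and 0.002). PDIA4 was at 273, 274 and 268 CPM and at 275, 276 and 281 CPM, likewise below Vectors (log2 fold changes -0.25 ± 0.039 and -0.22 ± 0.039, edgeR adjusted p = 0.0011 and 0.0015). HSPA5 was at 1144, 1195 and 1241 CPM and at 1275, 1215 and 1264 CPM, again without overlap with Vectors (edgeR adjusted p = 0.00094 and 0.0074).

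HSP90B1 was at 973, 1106 and 1125 CPM in FOXL2WT+FOXO1 and at 1159, 1137 and 1301 CPM in FOXL2C134W+FOXO1. The first group was below Vectors (log2 fold change -0.27 ± 0.063, edgeR adjusted p = 0.019), and the second overlapped with it (-0.11 ± 0.063, edgeR adjusted p = 0.33). The call in FOXL2WT+FOXO1 was lost without Vectors A (log2 fold change -0.24, edgeR adjusted p = 0.11) or without FOXL2WT+FOXO1 A (-0.21, edgeR adjusted p = 0.089). XBP1 did not pass in either condition, at log2 fold changes of 0.069 and 0.031. The calls against Vectors share the same 3 control libraries, and are therefore not independent of each other.

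FOXL2C134W was next compared with FOXL2WT, which asks how the mutant differs from the wild type. Genes of different tasks were lower with the mutant: the transcription factor XBP1 fell by 17.3%, the HSPA5 cochaperone DNAJB9 by 23.7% and the degradation gene HERPUD1 by 17.9%. The 3 of 10 genes called, all lower, stand beside 11.2% of all genes in either direction and 4.12% lower. The median log2 fold change of the 10 genes was -0.034, beside -0.012 over all genes.

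XBP1 was at 279, 291 and 282 CPM in FOXL2WT and at 243, 232 and 228 CPM in FOXL2C134W. The groups were far apart relative to their spread, with the mutant in the range of Vectors or below it (log2 fold change -0.27 ± 0.039, edgeR adjusted p = 0.00023). DNAJB9 was at 32.9, 33.2 and 28.3 CPM in FOXL2WT and at 23.0, 26.1 and 22.5 CPM in the mutant. The groups did not overlap, although FOXL2WT C was close to the mutant (log2 fold change -0.39 ± 0.084, edgeR adjusted p = 0.0056). With transcript length offsets in DESeq2, DNAJB9 was at -0.27 and did not pass (adjusted p = 0.12). HERPUD1 was at 128, 126 and 112 CPM in FOXL2WT and at 105, 99.9 and 95 CPM in FOXL2C134W, without overlap (log2 fold change -0.28 ± 0.056, edgeR adjusted p = 0.0031). Each of these 3 calls was kept in all 6 fits that left out 1 library.

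The folding genes that fell against Vectors were not called between FOXL2C134W and FOXL2WT. The log2 fold change was 0.01 for PDIA4 (95% interval -0.072 to 0.093), 0.066 for CALR (-0.0054 to 0.14) and -0.079 for HSPA5 (-0.15 to -0.006), and none passed. The libraries of HSPA5 did not overlap, at 1146 to 1166 CPM in the mutant and 1193 to 1251 CPM in FOXL2WT. For CALR, FOXL2C134W A and FOXL2WT C were both at 1131 CPM, and the rest of the mutant libraries were higher. Of these folding genes, HSP90B1 had the largest difference, 0.17 ± 0.063 on the log2 scale (edgeR adjusted p = 0.085), higher in the mutant. Its groups overlapped, since FOXL2C134W A at 1035 CPM lay below FOXL2WT C at 1048 CPM, and without FOXL2C134W A it passed (log2 fold change 0.25, edgeR adjusted p = 0.01). HSP90B1 also passed in some alternatives and not in others. It passed in DESeq2 (adjusted p = 0.038) and with the GC content offset (edgeR adjusted p = 0.019). With an offset for gene length, 6 of the 10 genes passed in place of 3, with HSPA5 (-0.14) and EDEM1 (-0.20) lower and CALR (0.11) higher in the mutant. The share of all genes called with that offset was not computed, so this count has no background beside it.

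**Figure D3:**
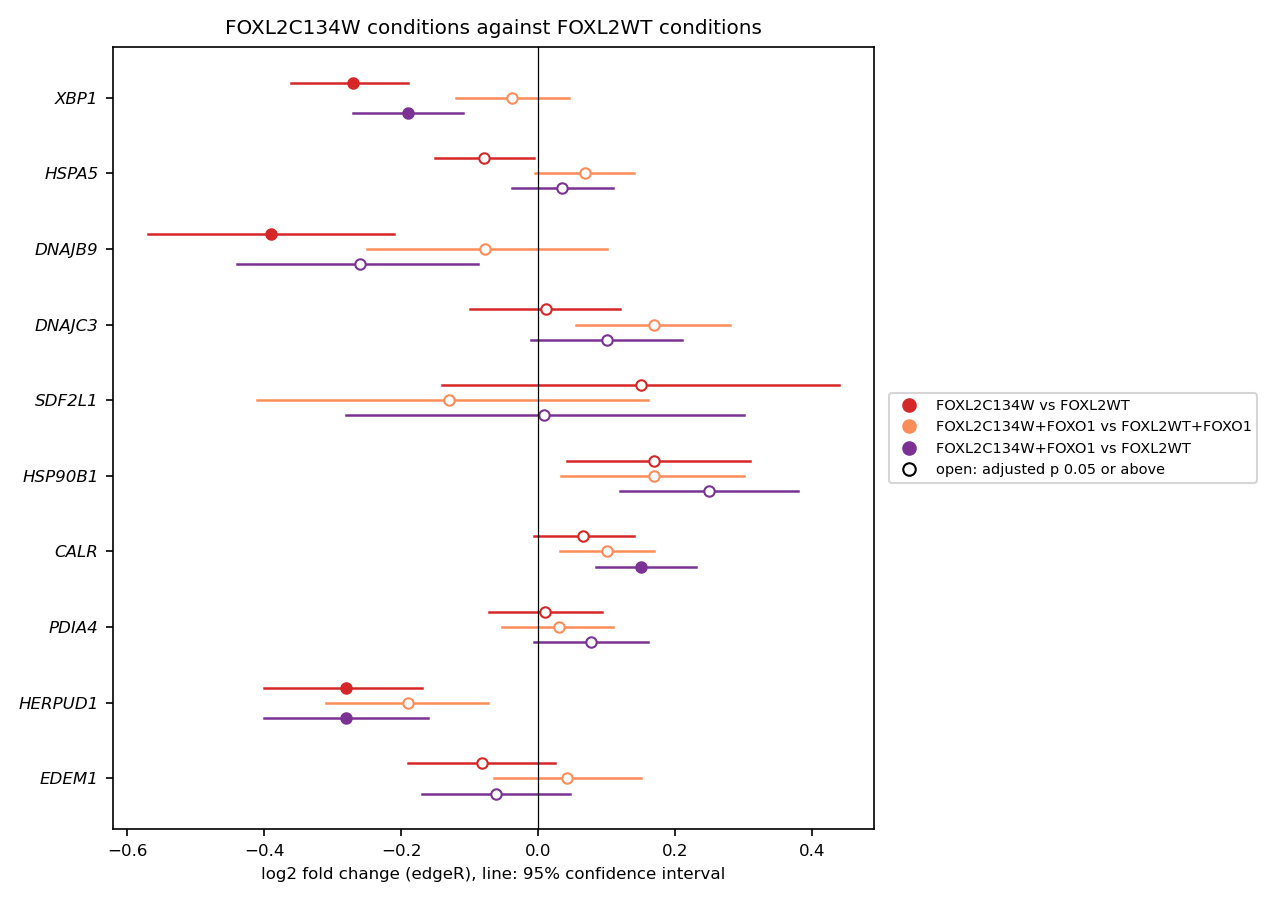
Log2 fold change from edgeR (horizontal axis; lines are 95% confidence intervals) of the 10 ER genes in the FOXL2C134W conditions against the FOXL2WT conditions; filled points have an adjusted p under 0.05. XBP1, DNAJB9 and HERPUD1 are filled below 0 for FOXL2C134W against FOXL2WT, and no point is filled when both conditions carry FOXO1.

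With FOXO1 in both conditions, 0 of the 10 genes passed between FOXL2C134W+FOXO1 and FOXL2WT+FOXO1, where 0.144% of all genes were called by edgeR. At an unadjusted p under 0.05, 4 genes passed, and DESeq2 called 0. The shares of all genes by those criteria were not computed, so these counts have no background beside them. XBP1 was at 253, 246 and 267 CPM in FOXL2WT+FOXO1 and at 250.5, 253 and 243 CPM in FOXL2C134W+FOXO1. The groups overlapped, with a log2 fold change of -0.038 (95% interval -0.12 to 0.045). HERPUD1 was at 118, 109 and 117 CPM and at 103, 104 and 94.0 CPM. These groups did not overlap, with a log2 fold change of -0.19 ± 0.057 that missed the threshold (edgeR adjusted p = 0.2). DNAJC3 had a log2 fold change of 0.17 ± 0.054 and HSP90B1 of 0.17 ± 0.063, and neither passed. HERPUD1 and HSP90B1 passed when every gene with at least 1 count in any library was tested (edgeR adjusted p = 0.029 and 0.0053).

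Adding FOXO1 to FOXL2WT changed 0 of the 10 genes in edgeR, where 0.0505% of all genes were called; 2 passed at an unadjusted p under 0.05, and DESeq2 called 1. The gene called by DESeq2 was XBP1, which was lower in all 3 libraries with FOXO1 than in the 3 without (log2 fold change -0.15 ± 0.039, edgeR adjusted p = 0.21; DESeq2 adjusted p = 0.04). Adding FOXO1 to FOXL2C134W likewise changed 0 of the 10 genes in edgeR, where 0.714% of all genes were called. At an unadjusted p under 0.05, 3 genes passed, and DESeq2 called 0. For both additions of FOXO1, the shares of all genes at an unadjusted p or in DESeq2 were not computed. The largest shift among the abundant genes was that of HSPA5, from 1166, 1158 and 1146 CPM to 1275, 1215 and 1264 CPM. The libraries did not overlap but the log2 fold change of 0.11 ± 0.035 missed the threshold (edgeR adjusted p = 0.16).

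The effect of FOXO1 with FOXL2C134W minus its effect with FOXL2WT, the interaction, passed for 1 of the 10 genes, beside 1.38% of all genes in either direction and 0.137% with a positive value. The gene was XBP1, at 0.24 ± 0.056 on the log2 scale (edgeR adjusted p = 0.042), with a FOXO1 effect of -0.15 in FOXL2WT and of 0.085 in FOXL2C134W. The interaction passed in 2 of 12 fits that left out 1 library, those without FOXL2C134W A or without FOXL2WT+FOXO1 C. Over the 12 fits its value stayed between 0.21 and 0.27, and without FOXL2WT B its edgeR adjusted p was 0.14. It also missed the threshold with a replicate block (0.24, edgeR adjusted p = 0.061) and when only the 4 conditions concerned were fitted (0.23, edgeR adjusted p = 0.078). DNAJB9 had the largest interaction value, 0.31 ± 0.120, which did not pass (edgeR adjusted p = 0.26).

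FOXL2C134W+FOXO1 was finally compared with FOXL2WT, which asks how far the mutant with FOXO1 remained from the wild type. XBP1 fell by 12.3% and HERPUD1 by 17.6%, and CALR rose by 11.3%. These 3 of 10 genes stand beside 1.69% of all genes in either direction, with 2 lower beside 1.00% and 1 higher beside 0.685%. The libraries did not overlap for any of the 3 genes, with HERPUD1 at 103, 104 and 94.0 CPM against 128, 126 and 112 CPM (log2 fold change -0.28 ± 0.056, edgeR adjusted p = 0.019). The log2 fold changes of XBP1 and CALR were -0.19 ± 0.039 and 0.15 ± 0.034 (edgeR adjusted p = 0.023 and 0.03). HSP90B1 was just outside the threshold at 0.25 ± 0.063 (edgeR adjusted p = 0.053), higher in FOXL2C134W+FOXO1 in every library. It passed under most other settings, among them DESeq2 (adjusted p = 0.0054). With the replicate block or the gene length offset it also passed (edgeR adjusted p = 0.031 and 0.025). In the 6 fits that left out 1 library, HSP90B1 passed in 0. The calls of XBP1, HERPUD1 and CALR depended on single libraries. XBP1 remained called in 1 of 6 fits that left out a library, the fit without FOXL2C134W+FOXO1 B, and had an edgeR adjusted p of 0.14 without FOXL2WT B. CALR was lost without FOXL2WT A or B or FOXL2C134W+FOXO1 A or C, with edgeR adjusted p of 0.1, 0.17, 0.073 and 0.11. HERPUD1 was lost without FOXL2WT A or B or FOXL2C134W+FOXO1 C, with edgeR adjusted p of 0.091, 0.12 and 0.11. The log2 fold change of XBP1 ranged from -0.20 to -0.17 over these fits, that of CALR from 0.14 to 0.19 and that of HERPUD1 from -0.34 to -0.23.

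SDF2L1, DNAJC3 and EDEM1 were not called in any of the 9 comparisons or in the interaction. SDF2L1 ranged from 12.7 to 18.8 CPM over the 15 libraries, DNAJC3 from 66.1 to 85.1 CPM and EDEM1 from 76.3 to 92.7 CPM. SDF2L1 had the widest errors, with SE of 0.133 to 0.140 in the 9 comparisons, so that a change of the size seen for XBP1 was not detectable for it. EDEM1 was at -0.053, -0.13, -0.16 and -0.11 on the log2 scale in FOXL2WT, FOXL2C134W, FOXL2WT+FOXO1 and FOXL2C134W+FOXO1 against Vectors. With transcript length offsets in DESeq2 it was at 0.17 in FOXL2WT and -0.15 in FOXL2C134W, and was not called (adjusted p = 0.66 and 0.61). With a gene length offset it passed in FOXL2C134W at -0.21 and in FOXL2C134W+FOXO1 at -0.14.

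The transcripts behind these genes were taken from the deposited salmon tables. HSPA5 had a single listed transcript, whereas HERPUD1 had 19, of which the coding form HERPUD1-201 made up 29.4% to 42.4% of its TPM. XBP1 had 7. The coding transcript XBP1-201, which keeps the intron that IRE1 removes, made up 48.2% to 87.2% of XBP1 TPM. XBP1-202, annotated without that intron, was listed at 0 estimated reads in all 15 libraries. A further coding transcript of the authors' annotation, XBP1-207, made up 28.3% ± 16.2 of XBP1 TPM in Vectors, 15.2% ± 4.13 in FOXL2WT and 17.9% ± 6.42 in FOXL2C134W (SD, n = 3). In FOXL2WT+FOXO1 it made up 19.5% ± 4.15 and in FOXL2C134W+FOXO1 25.6% ± 3.80. The 3 Vectors libraries spanned 10.3% to 41.6% and overlapped with each other condition. Between FOXL2WT, at 10.5% to 18.1%, and FOXL2C134W+FOXO1, at 21.7% to 29.3%, the libraries did not overlap. XBP1-207 is not in the annotation used here and its sequence was not read, so these shares give no measure of XBP1 splicing.

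Other genes of the pathway were counted from 9 lists with 107 genes in all, none of them among the 10. All 107 were tested. In FOXL2WT against Vectors, 9 were higher and 5 lower, or 13.1% beside 6.07% of all genes. In FOXL2C134W against Vectors, 8 were higher and 17 lower, or 23.4% beside 14.7%. In FOXL2C134W against FOXL2WT, 5 were higher and 11 lower, or 15% beside 11.2%. With FOXO1 added, 10 genes passed in FOXL2WT+FOXO1, or 9.35% beside 3.78%, and 16 in FOXL2C134W+FOXO1 against Vectors, or 15% beside 9.33%. The median log2 fold change of the 107 genes lay near 0 in FOXL2WT (0.0034) and in FOXL2C134W (-0.04).

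The direction differed by group. Of 12 genes listed for the PERK and ATF4 arm, 9 rose and 0 fell in FOXL2WT against Vectors, beside 2.46% of all genes higher. The median log2 fold change of the 12 was 0.40. PERK activity was not measured, and what raised these genes was not tested. With transcript length offsets in DESeq2, 8 rose and 0 fell, and the transcription factor ATF3 lost its call (0.27, adjusted p = 0.47). TRIB3, a pseudokinase induced by ATF4, went from a mean of 94.8 ± 8.35 to 163 ± 16.5 CPM (SD, n = 3 each; log2 fold change 0.78, edgeR adjusted p = 2.4e-05). CHAC1, a glutathione-degrading enzyme, went from 16.9 ± 1.88 to 27.9 ± 1.71 CPM (0.72, edgeR adjusted p = 0.00066). In FOXL2C134W against Vectors, 6 rose and 1 fell, beside 7.48% and 7.24% of all genes, and with transcript length offsets in DESeq2 4 rose and 1 fell. The gene that fell was the stress transcription factor ATF3, from 28.9 ± 1.75 to 21.5 ± 0.922 CPM (-0.42, edgeR adjusted p = 0.001). Between FOXL2C134W and FOXL2WT, 7 of the 12 fell and 0 rose, beside 4.12% of all genes lower, led by ATF3 (-0.95) and TRIB3 (-0.41). With transcript length offsets in DESeq2, 4 of the 12 fell in this comparison and 0 rose. In FOXL2WT+FOXO1 against Vectors, 5 rose and 0 fell, beside 1.41% of all genes higher, with NUPR1 at 0.58 and CHAC1 at 0.51. In FOXL2C134W+FOXO1, 3 rose and 3 fell, beside 4.17% and 5.16% of all genes, with ATF3 at -0.65 and CEBPB at 0.45. With both conditions carrying FOXO1, ATF3 was the 1 gene of the 107 that passed (-0.62, edgeR adjusted p = 0.00065). ATF3 was not called there with transcript length offsets in DESeq2 (-0.58, adjusted p = 0.097).

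Of 16 disulfide isomerases and oxidases, 2 fell in FOXL2WT, 5 in FOXL2C134W, 3 in FOXL2WT+FOXO1 and 3 in FOXL2C134W+FOXO1, and 0 rose. The shares of all genes called lower in these comparisons were 3.61%, 7.24%, 2.37% and 5.16%, and they are the background for the lists that follow as well. In DESeq2 with transcript length offsets, 1, 4, 2 and 2 of the 16 fell in the same order, and 0 rose. That setting called 496, 971, 410 and 744 of all genes in either direction, in place of 842, 2041, 524 and 1294. PDIA3, the isomerase that works with calreticulin, fell from 915 ± 15.5 CPM in Vectors to 792 ± 12.9 in FOXL2WT and 774 ± 12.5 in FOXL2C134W (log2 fold change -0.21 and -0.24, edgeR adjusted p = 0.0016 and 0.00015). With transcript length offsets in DESeq2, PDIA3 was at -0.10 in FOXL2WT and was not called there (adjusted p = 0.36). Its calls in FOXL2WT+FOXO1 and FOXL2C134W+FOXO1 were not made in that setting either (0.047 and -0.0024, adjusted p = 0.78 and 0.99). PDIA6 fell from 491 ± 10.1 to 442 ± 5.30 CPM in FOXL2WT (-0.15, edgeR adjusted p = 0.0089), and the membrane-bound TMX1 fell in FOXL2C134W, FOXL2WT+FOXO1 and FOXL2C134W+FOXO1, by 0.19, 0.21 and 0.28 on the log2 scale, of which the call in FOXL2WT+FOXO1 was not made with transcript length offsets (adjusted p = 0.42). Of 8 prolyl isomerases, 4 fell in FOXL2C134W, led by PPIB, the ER cyclophilin, at -0.24 (edgeR adjusted p = 0.00071), and with transcript length offsets in DESeq2 1 of the 8 fell. Of 9 genes of the HSP70 system, only HYOU1, a nucleotide exchange factor of HSPA5, was called, lower in FOXL2WT, FOXL2C134W and FOXL2C134W+FOXO1 by 0.13, 0.14 and 0.16, and in none of them with transcript length offsets (adjusted p = 0.58, 0.63 and 0.3). Of 8 lectin chaperone and glycan genes, 1 was lower in each of those same conditions: PRKCSH in FOXL2WT (-0.20), and its partner subunit of glucosidase II, GANAB, in FOXL2C134W (-0.11) and FOXL2C134W+FOXO1 (-0.12). GANAB was not called in either with transcript length offsets (adjusted p = 0.29 and 0.32).

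Of 9 stress sensors and proteases, 0 were called in FOXL2WT against Vectors and 2 were higher in FOXL2C134W, beside 7.48% of all genes. ERN1, the gene of IRE1, was at 0.29 (edgeR adjusted p = 0.02) and CREB3L1 at 0.15 (edgeR adjusted p = 0.041). With transcript length offsets in DESeq2, ERN1 was at 0.95 (adjusted p = 0.013) and CREB3L1 was not called (0.20, adjusted p = 0.061). Between FOXL2C134W and FOXL2WT, 2 of these 9 genes were higher beside 7.13% of all genes and 1 was lower beside 4.12%. CREB3L1 and CREB3L2, membrane-bound transcription factors, were at 0.28 and 0.20 (edgeR adjusted p = 0.0011 and 0.014) and CREB3 at -0.18 (edgeR adjusted p = 0.041), of which CREB3L1 alone was called with transcript length offsets. Of 20 genes of ER-associated degradation, OS9 fell in FOXL2WT (-0.15) and ERLEC1 in FOXL2C134W (-0.18) against Vectors, beside 3.61% and 7.24% of all genes lower. OS9 was not called with transcript length offsets in DESeq2 (adjusted p = 0.082). SYVN1, the ubiquitin ligase with which HERPUD1 associates, was at 21.2 ± 1.03 CPM in FOXL2WT and at 27.0 ± 1.30 CPM in FOXL2C134W, opposite in sign to HERPUD1 (0.34, edgeR adjusted p = 0.0031). It was at 21.3 ± 0.732 CPM in FOXL2C134W+FOXO1, lower than in FOXL2C134W (-0.34, edgeR adjusted p = 0.023), with an interaction of -0.51 (edgeR adjusted p = 0.013). None of these 3 calls of SYVN1 was made with transcript length offsets in DESeq2, where its values were 0.19, -0.20 and -0.39 (adjusted p = 0.6, 0.83 and 0.61). TRAM1, a partner of the translocon, was 1 of 16 genes called between FOXL2C134W and FOXL2WT (-0.20, edgeR adjusted p = 0.001). Of 9 genes of ER exit and retrieval, KDELR3 (-0.24) and SURF4 (-0.14) fell in FOXL2C134W against Vectors, and SURF4 was not called with transcript length offsets (adjusted p = 0.36).

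**Figure D4:**
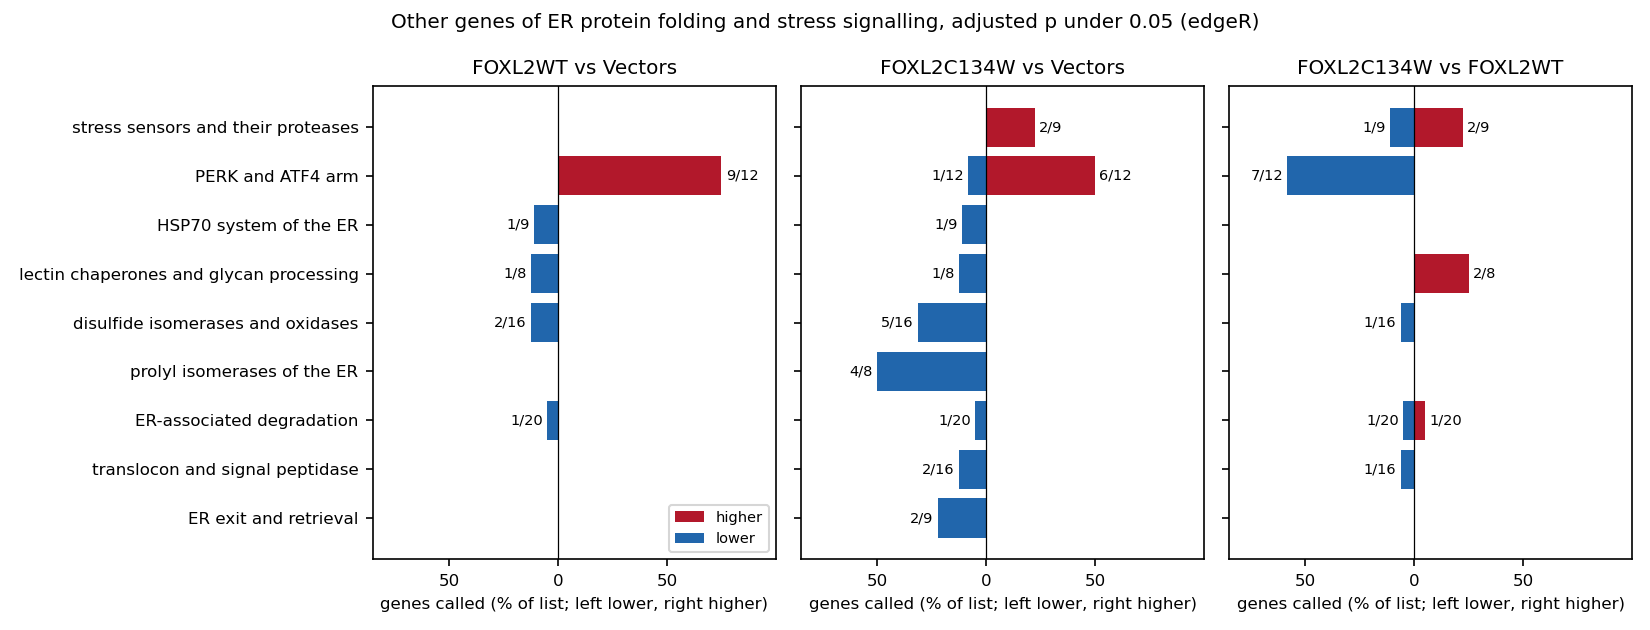
Share of each list of other ER genes called by edgeR (horizontal axis, percent of the list; lower to the left, higher to the right; labels give genes called of genes tested) in 3 comparisons. The PERK and ATF4 arm stands out with 9 of 12 higher in FOXL2WT and 7 of 12 lower in FOXL2C134W against FOXL2WT, while called isomerases lie to the left.

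The genes outside the 10 whose log2 CPM tracked the mean of the 10 most closely over the 15 libraries, among 9425 genes of at least 10 CPM, were CYB5B (Pearson r = 0.933), PMP22 (0.915), SPARC (0.911), ARL6IP1 (0.910) and P4HA3 (0.905). These points share libraries and the same scaling, and the values are descriptive. SPARC, a secreted matrix glycoprotein, averaged 2261 ± 47.1 CPM in Vectors, 2041 ± 13.8 in FOXL2WT and 1861 ± 56.9 in FOXL2C134W, and P4HA3, a collagen prolyl hydroxylase subunit of the ER, 18.0 ± 0.936, 13.8 ± 0.655 and 11.9 ± 0.187 CPM (SD, n = 3).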

How the data were processed

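RNA was measured in 15 HGrC1 libraries, grouped by the plasmids named in the labels. The authors estimated transcripts with salmon 1.1.0 on hg38 (GRCh38), per the labels, and deposited estimated counts per gene, rounded and not normalized, and the TPM of 227063 transcripts per library, which salmon scales to 1000000. Transcript lengths came from the same tables. TPM was summed per gene and used to compare levels between genes and transcripts. The summed TPM of the ER stress chaperones and of the marker lists was also compared between conditions, as were transcript shares of TPM. The fixed total of each library includes transfected RNA, with SMAD3 at a mean of 75.6 TPM in Vectors and 5240.1 TPM in FOXL2WT. The part of transfected RNA in the summed TPM was not tested. Coordinates and XBP1 transcripts came from GENCODE 44, which held 98.4% of the transcripts and may not be the authors' release. Promoters came from RefSeq on GRCh38.p14.

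The 15 libraries were fitted together in edgeR 4.0.16 (R 4.3.3) with 1 term per condition, after filterByExpr and TMM scaling, and compared with the quasi-likelihood test. Benjamini-Hochberg adjustment ran over all 13868 genes and a gene was called at an adjusted p under 0.05. CPM was computed with the TMM factors, and log2 CPM with a prior count of 2. Tables were made with Python 3.11.15, pandas 2.3.3, numpy 2.4.6 and matplotlib 3.10.9. The edgeR and DESeq2 fits of FOXL2C134W against FOXL2WT were also run on counts simulated from the edgeR means and dispersions. Such counts follow the fitted model, so that run could not test effects of gene length or GC content, or whether replicates were separate experiments. Alternatives were DESeq2 1.42.0, DESeq2 with transcript length offsets, DESeq2 size factors, filters of at least 1 count in any library or 10 in every library, fits restricted to the compared conditions, the replicate letter as a block, correction of each library for gene length or for GC content (lowess, span 0.3), block and length correction in 1 model, and omission of every library in turn.

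All 10 genes were named, with at most 2 called genes of each list in each comparison by size of log2 fold change, the 5 genes nearest to the mean of the 10, and the transfected genes. Further list genes that differ from this rule were named after their values were seen. The 10 genes and the lists were chosen with earlier results of these data known.

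Library totals of 14962245 to 25339094 counts set counting error, and the spread between replicates exceeded it, the chi-square divided by its degrees of freedom being 2.2 to 8.86 over 15 replicate pairs. A count of 0 allows up to 3. Levels below that limit were not compared.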

Additional observations from a re-analysis of the deposited data

Results flagged for a closer look

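XBP1 was the gene among the 10 whose response to FOXO1 differed between the forms of FOXL2 by a test of the difference itself, with an interaction of 0.24 on the log2 scale (edgeR adjusted p = 0.042). The call was made in 2 of 12 fits that left out 1 library and was lost with the replicate block (edgeR adjusted p = 0.061) and with only the compared conditions (0.078). Its mean level was 284 CPM in FOXL2WT and 255 CPM with FOXO1, and 235 CPM in FOXL2C134W and 249 CPM with FOXO1. FOXL2, SMAD3 and FOXO1 RNA differed between these conditions as well, and their part in the interaction was not tested. Conditions of 3 libraries were not searched for single libraries standing apart.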

How the results depend on the processing

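Of 23 values called among the 10 genes, 0 reversed in any of 230 fits with another setting, and 8 of those fits lost the call. A further 144 fits of these values left out 1 library each, of which 28 lost the call, for 6 of the 23 values, and 0 reversed. Of 77 values that were not called, 38 of 766 fits made a call and 19 changed sign. Shares of all genes called were not computed for the other settings, apart from counts with transcript length offsets. The counts of genes called that changed by more than 1.5 times were these. FOXL2C134W against FOXL2WT had 6 with a gene length offset and 6 with that offset and the replicate block, in place of 3. FOXL2C134W+FOXO1 against FOXL2WT+FOXO1 had 2 with the filter of 1 count, in place of 0. FOXL2C134W+FOXO1 against FOXL2WT had 1 with transcript length offsets in DESeq2, 5 with the filter of 1 count, and 0 to 3 without single libraries, in place of 3. FOXL2WT+FOXO1 against FOXL2WT had 1 in DESeq2 and 1 with transcript length offsets, and FOXL2C134W+FOXO1 against FOXL2C134W had 1 with a gene length offset, in place of 0. The interaction had 0 with only the compared conditions, 0 with the replicate block and 0 to 1 without single libraries, in place of 1. Of the 107 list genes, the count called with transcript length offsets was 14 in place of 25 in FOXL2C134W and 7 in place of 16 in FOXL2C134W+FOXO1 against Vectors, 10 in place of 16 in FOXL2C134W against FOXL2WT, 0 in place of 1 in FOXL2WT+FOXO1 against FOXL2WT and 0 in place of 3 in the interaction. Over all genes that setting called 971, 744, 759, 69 and 120 in place of 2041, 1294, 1560, 7 and 192. With the gene length offset the list count was 2 in place of 1 between the FOXO1 conditions. The cause was not tested.

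Same-lettered libraries had correlations of -0.164 to 0.166 between their deviations, and 5 of 15 libraries correlated best with their own letter, so the letters were not taken as pairs. With the replicate block the counts called were 5, 5, 4 and 3 against Vectors in the order FOXL2WT, FOXL2C134W, FOXL2WT+FOXO1 and FOXL2C134W+FOXO1, and 4 for FOXL2C134W against FOXL2WT. The shares of all genes called with the block were not computed.

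Values that changed sign were all uncalled. With transcript length offsets, EDEM1 was 0.17 in FOXL2WT against Vectors, -0.0046 between the FOXO1 conditions and -0.056 for FOXO1 in FOXL2C134W, where DNAJB9 was -0.005. With the GC offset, SDF2L1 was -0.054 in FOXL2C134W, DNAJB9 0.0036 in FOXL2WT+FOXO1 against Vectors, and EDEM1 -0.002 for FOXO1 in FOXL2C134W. With the replicate block SDF2L1 was -0.0049 in FOXL2C134W against Vectors. With the gene length offset, with or without the replicate block, DNAJC3 was -0.10 and PDIA4 -0.013 in FOXL2C134W against FOXL2WT, EDEM1 -0.0093 between the FOXO1 conditions, HSPA5 -0.0047 in FOXL2C134W+FOXO1 against FOXL2WT, and HERPUD1 -0.017 for FOXO1 in FOXL2C134W, where the filter of 10 counts gave HERPUD1 -0.0027.

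Without single libraries, SDF2L1 ranged from -0.11 to 0.13 in FOXL2C134W and from -0.15 to 0.12 in FOXL2WT+FOXO1 against Vectors, from -0.25 to 0.02 between the FOXO1 conditions, from -0.036 to 0.071 in FOXL2C134W+FOXO1 against FOXL2WT and from -0.0093 to 0.26 for FOXO1 in FOXL2WT. DNAJB9 ranged from -0.12 to 0.018 in FOXL2WT+FOXO1 against Vectors. In FOXL2C134W against FOXL2WT, DNAJC3 ranged from -0.0047 to 0.05 and PDIA4 from -0.016 to 0.067. For FOXO1 in FOXL2C134W, HERPUD1 ranged from -0.031 to 0.044 and EDEM1 from -0.032 to 0.054. In the interaction HSP90B1 ranged from -0.078 to 0.039 and PDIA4 from -0.035 to 0.046. The planned comparison of the spliced share of XBP1 was not run, since XBP1-202 was listed at 0 in every library.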
